A study of Mus with 9 samples.

Results

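Lysosomal acidification and proteolysis genes were examined as a group of 45 probe sets out of 22206 on the array. They were chosen by gene symbol, as every probe set that names a subunit of the V-ATPase (Atp6v0 or Atp6v1), a cathepsin with a single-letter suffix or a LAMP. The 45 probe sets stand for 44 genes among 22662 gene symbols, and by class they comprise 10 probe sets of the V0 sector (9 genes), 13 of the V1 sector, 18 cathepsins and 4 LAMPs.

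The V-ATPase is the proton pump that acidifies lysosomes and, in neurons, also the synaptic vesicles, where the proton gradient drives the loading of neurotransmitter. Its V1 sector in the cytosol hydrolyses ATP and its V0 sector in the membrane carries the protons. Cathepsins are the proteases of the lysosome, most of them active at the acidic pH that the pump maintains, and LAMPs are heavily glycosylated proteins of the lysosomal membrane.

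Hippocampal RNA was hybridized to Clariom S Mouse arrays, 3 per group and 9 in all. The SAMR1 group, a strain that ages normally, and the SAMP8 group, a senescence-prone strain with early learning deficits, were given vehicle by mouth, which is saline in the sample labels and water in the study's methods. The TG-treated SAMP8 group was given trigonelline (TG), a plant alkaloid, orally at 5 mg/kg for 30 days. The methods give 16-week-old males for SAMP8, and the age and sex of the SAMR1 mice are not given in the sources used here. The mice were housed individually and went through 8 days of water maze testing after the 30 days, during which TG was continued. SAMR1 is the normal-aging control of another strain, so a difference of SAMP8 from SAMR1 is a strain difference.

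For each group the deposited tables give 1 average in log2 signal per probe set, and values per array were not analysed here. No SD or test was therefore computed here, and the averages alone do not show whether a difference exceeds the spread between mice. All differences below are differences of group averages on the log2 scale, and a fold is the linear form of the same difference. The averages are rounded to 2 decimals. In whole hippocampus, fewer cells of a type and less RNA per cell cannot be told apart.

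The labelled tissue was checked against markers. All 6 general neuron markers had signals above the median of all probe sets (6.08), with group averages from 11.45 to 19.7, and 4 of 6 hippocampal neuron markers did, among them Neurod6 at 14.86 in SAMR1, 14.85 in SAMP8 and 14.88 with TG. The median difference over all probe sets was 0.00 for SAMP8 minus SAMR1 and 0.01 for TG-treated SAMP8 minus SAMP8. Among the probe sets above the median signal these medians were 0.10 and -0.04, so values relative to probe sets of like signal are given where they matter.

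Members were counted as higher or lower when 2 group averages differed by at least 1.5-fold (0.585 in log2). Between SAMP8 and SAMR1, 3 of the 45 probe sets (6.67%) were higher in SAMP8, against 5.00% of all probe sets on the array, and 1 (2.22%) was lower, against 6.08%. Between TG-treated SAMP8 and SAMP8, 5 (11.1%) were higher with TG, against 4.48% of all probe sets, and 1 (2.22%) was lower, against 3.74%. Between TG-treated SAMP8 and SAMR1, 3 (6.67%) were higher in the treated mice, against 5.62%, and 0 were lower, against 4.83%. Apart from the 5 higher with TG, these shares lay near or below the background. Of those 5, Atp6v0d2 and Ctsk were at or below the median signal, and among the 29 members above it 3 (10.3%) were higher with TG, against 4.63% of all probe sets above it.

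Markers of other cells also differed between the groups. With TG, 5 of 6 hippocampal neuron markers were lower than in SAMP8 (median -0.36). The log2 of their summed signal was 15.42 in SAMR1, 15.53 in SAMP8 and 15.34 with TG. In such a sum the brightest marker of a list weighs most. The 6 general neuron markers went the other way, with 4 higher with TG, 1 lower and 1 level (median 0.13). Their sums were 20.09, 20.16 and 20.12. Of 5 oligodendrocyte markers 4 were higher with TG (median 0.36), with sums of 18.88, 18.73 and 18.94. Endothelial markers were higher in SAMP8 than in SAMR1 in 4 of 4 (median 0.37) and lower with TG in 4 of 4 (median -0.285), with sums of 9.45, 9.96 and 9.71. Astrocyte markers were higher in SAMP8 in 5 of 5 (median 0.17) and lower with TG in 4 of 5 (median -0.03), with sums of 18.40, 18.45 and 18.42. Relative to probe sets of like signal these medians were 0.07 and 0.02. Of 6 choroid plexus markers 4 were higher in SAMP8 and 3 with TG, with sums of 9.27, 9.95 and 10.40. Ttr, at 8.45, 9.33 and 10.05, made up most of these sums. The median of the list with TG was -0.015, and the 3 lower markers included Kl (-0.79) and Folr1 (-0.40). Of 8 meninges markers 3 were higher in SAMP8 and 4 with TG, with sums of 11.15, 10.80 and 10.27. Dcn, at 10.66, 10.15 and 9.38, made up most of these sums, and the median of the list with TG was -0.025. Of all probe sets 49.5% were higher in SAMP8 and 50.0% higher with TG. Among those above the median signal these shares were 62.0% and 43.4%, and 55.0% were lower with TG. Above the median signal lay 3 of the 6 choroid plexus markers, 4 of the 8 meninges markers and all of the oligodendrocyte, endothelial and astrocyte markers. Their part in the differences of the lysosomal genes was not tested.

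Signal separated the members into 29 above and 16 at or below the median of all probe sets. The 16 include the isoforms known from kidney, bone or testis (Atp6v0a4, Atp6v0d2, Atp6v1b1, Atp6v1c2, Atp6v1e2 and Atp6v1g3), the placental cathepsins Ctsj, Ctsq and Ctsr, the immune cell proteases Ctsg and Ctsw, and Ctse, Ctsh, Ctsk, Lamp3 and Atp6v0e. Small differences of such dim probe sets carry little information, and 8 of the members lay in the lowest 25% of all signals.

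**Figure D1:**
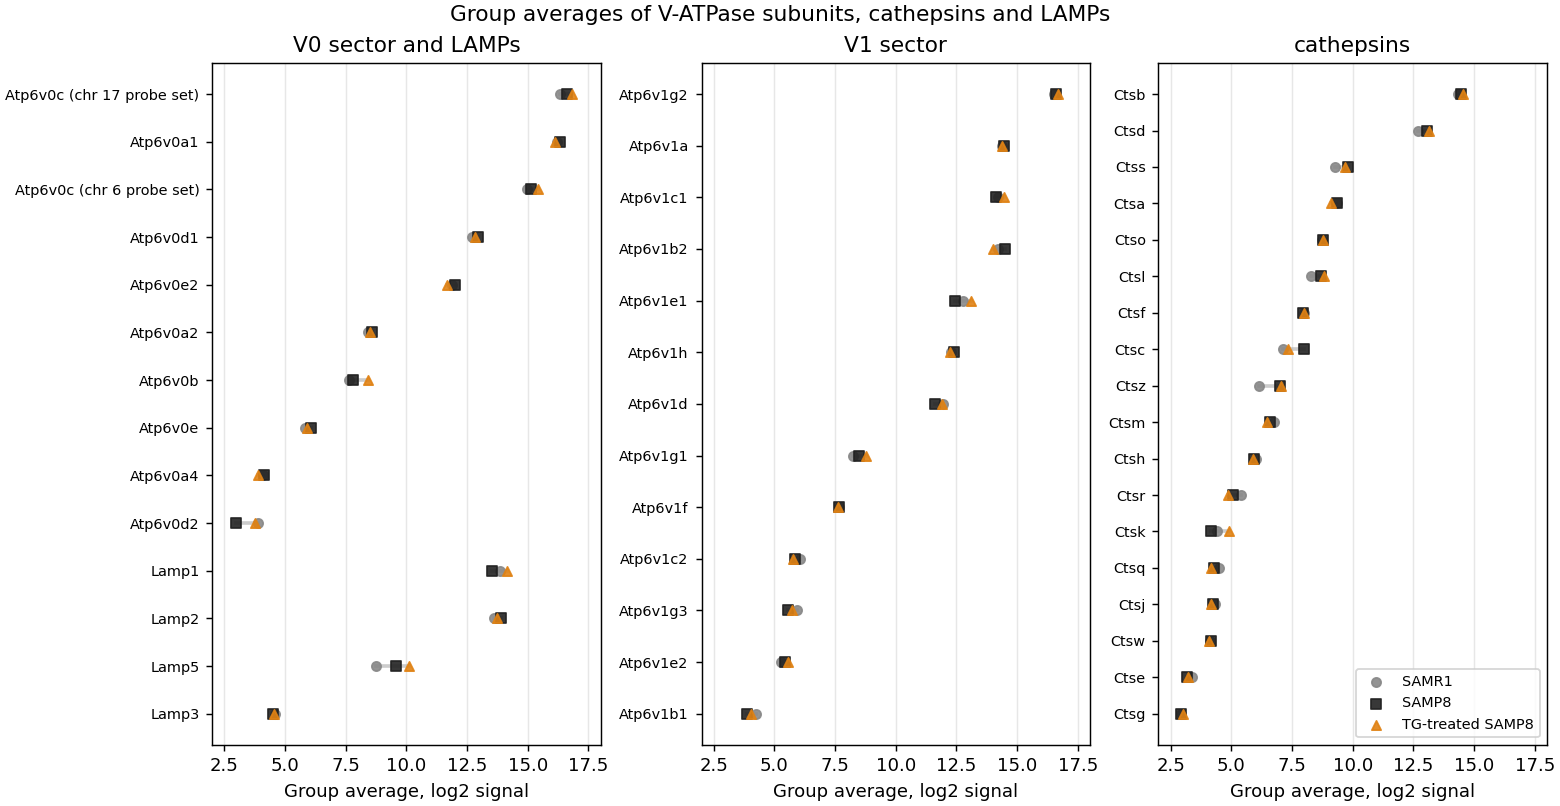
Group averages in log2 signal (x axis) of each V-ATPase, cathepsin and LAMP probe set (rows), for SAMR1 (circles), SAMP8 (squares) and TG-treated SAMP8 (triangles); the grey bar joins the lowest and the highest of the 3 averages. The markers lie close together for most probe sets, with gaps for Lamp5, Ctsz, Ctsc, Atp6v0d2 and Atp6v0b, whose averages span between 0.77 and 1.37.

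The membrane sector V0 was slightly higher in SAMP8 than in SAMR1. In 9 of its 10 probe sets the SAMP8 average was the higher one, with a median difference of 0.165, which was 0.085 relative to probe sets of like signal. Of all probe sets 49.5% were higher in SAMP8, and of those above the median signal, where 7 of the 10 lie, 62.0%. Between TG-treated and nontreated SAMP8 the sector had no common direction, with 4 probe sets higher, 6 lower and a median of -0.085. This median was 0.03 relative to probe sets of like signal and genomic length.

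Atp6v0b, a proteolipid of the proton-carrying rotor, lies on chromosome 4 from 117884330 to 117887333 (build GRCm38). Its averages were 7.63 in SAMR1, 7.80 in SAMP8 and 8.40 with TG. The treated mice thus stood highest, 1.52-fold above SAMP8 and 1.71-fold above SAMR1. Relative to probe sets of like signal the difference with TG was 0.65, and relative to those of like signal and genomic length it was 0.48, below the 1.5-fold limit.

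Atp6v0c encodes the main proteolipid of the rotor, and 2 probe sets carry its symbol. The one whose identifier places it on chromosome 17, where the gene lies from 24163865 to 24169678, also names the pseudogene Atp6v0c-ps2 and stood at 16.32 in SAMR1, 16.60 in SAMP8 and 16.81 with TG. The other stood at 14.95, 15.14 and 15.43 in the same order, and its identifier places it on chromosome 6, the chromosome of the transcribed pseudogene Atp6v0c-ps2 (37805975 to 37807107). It was the only member among the 45 whose identifier and RefSeq position named different chromosomes, so the share of the pseudogene in both signals is uncertain. Both probe sets gave the same order of the 3 groups, with differences with TG of 0.21 and 0.29, which were 0.03 and 0.11 relative to probe sets of like signal and length.

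The a subunit anchors the pump and directs it to a compartment, and its isoform Atp6v0a1 prevails in neurons. Atp6v0a1 had 16.22 in SAMR1, 16.32 in SAMP8 and 16.14 with TG, and Atp6v0a2 had 8.42, 8.58 and 8.51. Atp6v0d1, which couples the rotor to the V1 sector, had 12.71, 12.94 and 12.84. The small e subunit Atp6v0e2 had 11.90, 11.99 and 11.67. In these 4 genes the 3 averages lay within 0.32 of each other. Relative to probe sets of like signal and length, however, Atp6v0e2 was past the 1.5-fold limit. Its difference on that scale was -0.64 with TG and -0.66 for TG-treated SAMP8 minus SAMR1.

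Atp6v0d2, the isoform of the d subunit known from osteoclasts, was the only member lower in SAMP8 than in SAMR1 by 1.5-fold, at 3.87 in SAMR1, 2.98 in SAMP8 and 3.75 with TG. Its difference with TG was 0.77. The SAMP8 average stood apart from the other two, which differed by 0.12. The probe set ranked at the percentile 7.5 of all signals, and without the 25% of probe sets of lowest signal 0 members were lower in SAMP8. Atp6v0a4 and Atp6v0e, the remaining V0 members, had differences of 0.05 and 0.24 between the strains and of -0.25 and -0.14 with TG.

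Among the V1 subunits, differences in either direction occurred side by side, and none reached 1.5-fold between the strains. The median was 0.03 for SAMP8 minus SAMR1 and 0.16 for TG-treated SAMP8 minus SAMP8, with 8 of 13 probe sets higher and 5 lower with TG, beside 50.0% of all probe sets higher. Their largest differences with TG had opposite signs and belonged to Atp6v1e1 and Atp6v1b2.

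Atp6v1e1 encodes the E subunit, which pairs with G to form the peripheral stalks that hold the pump's head against the torque of the rotor. It lies on chromosome 6 from 120795244 to 120822698 and had averages of 12.79 in SAMR1, 12.46 in SAMP8 and 13.09 with TG. SAMP8 was the lowest of the groups, and the treated mice were 1.55-fold above it, a difference of 0.63 that only 3.52% of all probe sets exceeded. It was 0.68 relative to probe sets of like signal and also 0.68 relative to those of like signal and length.

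Atp6v1b2 encodes the B subunit, which with the A subunit forms the ring that binds ATP, and lies on chromosome 8 from 69088736 to 69113718. Its averages were 14.21 in SAMR1, 14.51 in SAMP8 and 14.01 with TG. SAMP8 was the highest here, and the difference with TG of -0.50 (1.41-fold) stayed short of the 1.5-fold limit. Its partner Atp6v1a, the catalytic A subunit, differed by no more than 0.10 between any groups, at 14.38 in SAMR1, 14.48 in SAMP8 and 14.40 with TG.

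Among the V1 subunits above the median signal, Atp6v1d and Atp6v1c1 also had averages below SAMR1 in SAMP8 and above SAMP8 with TG. Atp6v1d, part of the central stalk, had 11.93 in SAMR1, 11.62 in SAMP8 and 11.90 with TG. Atp6v1c1, which controls the joining of V1 to V0, had 14.23, 14.12 and 14.46. Neither reached 1.5-fold in any comparison. The stalk subunit Atp6v1f stood at 7.65, 7.68 and 7.64, and the regulatory subunit Atp6v1h at 12.26, 12.39 and 12.23, so the averages of both were nearly level.

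The 3 isoforms of the G subunit were all higher with TG than without, by 0.32 for the widely used Atp6v1g1, 0.10 for the neuronal Atp6v1g2 and 0.16 for Atp6v1g3, known from kidney. Atp6v1g1 had 8.25 in SAMR1, 8.47 in SAMP8 and 8.79 with TG, and Atp6v1g2 had 16.54, 16.60 and 16.70. Relative to probe sets of like signal and length the difference of Atp6v1g2 with TG was -0.22 and that of Atp6v1g1 was 0.28, so the direction of the neuronal isoform depended on the scaling. The B isoforms went opposite ways, with Atp6v1b1, known from kidney and inner ear, at -0.38 between the strains and 0.17 with TG. Of the other dim isoforms, Atp6v1c2 had differences of -0.22 between the strains and -0.08 with TG, and Atp6v1e2 of 0.13 and 0.16.

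The highest differences between the strains among the members were in cathepsins. Over all 18 the median for SAMP8 minus SAMR1 was 0.01. The 5 with the largest differences, Ctsc, Ctsz, Ctss, Ctsl and Ctsd, were higher in SAMP8 by 0.37 to 0.87. They belong to 11 cathepsins known from lysosomes of many tissues, whose median was 0.13, or 0.04 relative to probe sets of like signal. With TG the median was -0.015, and outside Ctsc and Ctsk the differences of TG-treated SAMP8 minus SAMP8 ran from -0.28 to 0.11.

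Ctsc, also called dipeptidyl peptidase I, activates serine proteases of immune cells and lies on chromosome 7 from 88278024 to 88315861. Its averages were 7.11 in SAMR1, 7.98 in SAMP8 and 7.32 with TG. SAMP8 stood 1.83-fold above SAMR1 and the treated mice 1.58-fold below SAMP8, which left them 0.21 above SAMR1. It was the only one of the 45 probe sets lower with TG by 1.5-fold, and 2.36% of all probe sets had a lower difference. Relative to probe sets of like signal and length the difference of Ctsc with TG was -0.56, short of the 1.5-fold limit.

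Ctsz, a carboxypeptidase on chromosome 2 from 174427494 to 174439039, also stood 1.83-fold above SAMR1 in SAMP8. Its averages were 6.13 in SAMR1, 7.00 in SAMP8 and 7.06 with TG, so the 2 SAMP8 groups were level and SAMR1 was the low one. Ctss, a protease typical of microglia and antigen-presenting cells, had 9.26, 9.82 and 9.68, a strain difference of 0.56 just short of the limit. In the comparison with TG, Atp6v0b (0.60) and Lamp1 (0.61) were just inside the limit and Lamp5 (0.53) just outside it.

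Ctsl, a broadly acting endopeptidase, had 8.28 in SAMR1, 8.71 in SAMP8 and 8.82 with TG. Ctsd, the main aspartic protease of lysosomes, had 12.71, 13.08 and 13.16 on a probe set that also names Ifitm10. In both genes the SAMP8 groups lay closer to each other than to SAMR1. Their strain differences were 0.29 and 0.28 relative to probe sets of like signal.

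Ctsb, the most widely used cysteine cathepsin, stood at 14.35 in SAMR1, 14.48 in SAMP8 and 14.54 with TG. Ctsa, which protects lysosomal sialidase and galactosidase, stood at 9.34, 9.37 and 9.09. Ctsf had 7.99, 7.96 and 7.99, and Ctso had 8.74, 8.76 and 8.79. The 3 averages of Ctsf and of Ctso lay within 0.05 of each other, the closest among the cathepsins.

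Ctsk, the collagen-degrading protease of osteoclasts, was 1.66-fold higher with TG, at 4.41 in SAMR1, 4.16 in SAMP8 and 4.89 with TG. Its signal ranked at the percentile 26.8 of all probe sets. The placental cathepsins on chromosome 13 had no difference past 1.5-fold. Ctsm stood at 6.78, 6.61 and 6.49, and Ctsr at 5.41, 5.08 and 4.85, the deepest difference of TG-treated SAMP8 minus SAMR1 among the members (-0.56). For Ctse, Ctsg, Ctsh, Ctsj, Ctsq and Ctsw, differences between the strains ran from -0.20 to 0.03 and those with TG from -0.10 to 0.10.

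Microglia, the immune cells of the brain, are rich in several cathepsins, so their markers are given beside these values. Of 11 microglia markers, 6 were higher and 5 lower in SAMP8 than in SAMR1, with a median difference of 0.09, and 5 were higher and 6 lower with TG. The log2 of their summed linear signal was 11.73 in SAMR1, 12.42 in SAMP8 and 12.12 with TG, and P2ry12 made up most of it. Their mean log2 signal was 6.37, 6.59 and 6.59 in the same order. Aif1 had 5.71, 7.22 and 6.78, and P2ry12 had 11.17, 12.03 and 11.60, whereas Trem2 had 5.51, 4.81 and 5.21. Of the 11 microglia markers 5 were above the median signal. Their part in the cathepsin values was not tested.

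The 4 LAMPs differed from each other. Lamp1, the most abundant protein of the lysosomal membrane, lies on chromosome 8 from 13159161 to 13175338 and had averages of 13.85 in SAMR1, 13.52 in SAMP8 and 14.13 with TG. The treated mice were 1.53-fold above SAMP8, and SAMP8 was 0.33 below SAMR1. Relative to probe sets of like signal and length the difference with TG was 0.60. Lamp2, which also serves chaperone-mediated autophagy and lies on chromosome X, stood at 13.59, 13.88 and 13.72, with SAMP8 the highest instead of the lowest.

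Lamp5, a LAMP found in neurons and a marker of a class of inhibitory interneurons, had the widest range of all the members. It lies on chromosome 2 from 136052025 to 136069917 and had averages of 8.73 in SAMR1, 9.57 in SAMP8 and 10.10 with TG. SAMP8 was 1.79-fold above SAMR1 and the treated mice 1.44-fold above SAMP8. The sum of these steps put TG-treated SAMP8 at 2.58-fold SAMR1, the only difference among the members past 2-fold, and 0.40% of all probe sets had a higher one. Lamp3, known from dendritic cells, was level at 4.57, 4.49 and 4.53.

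**Figure D2:**
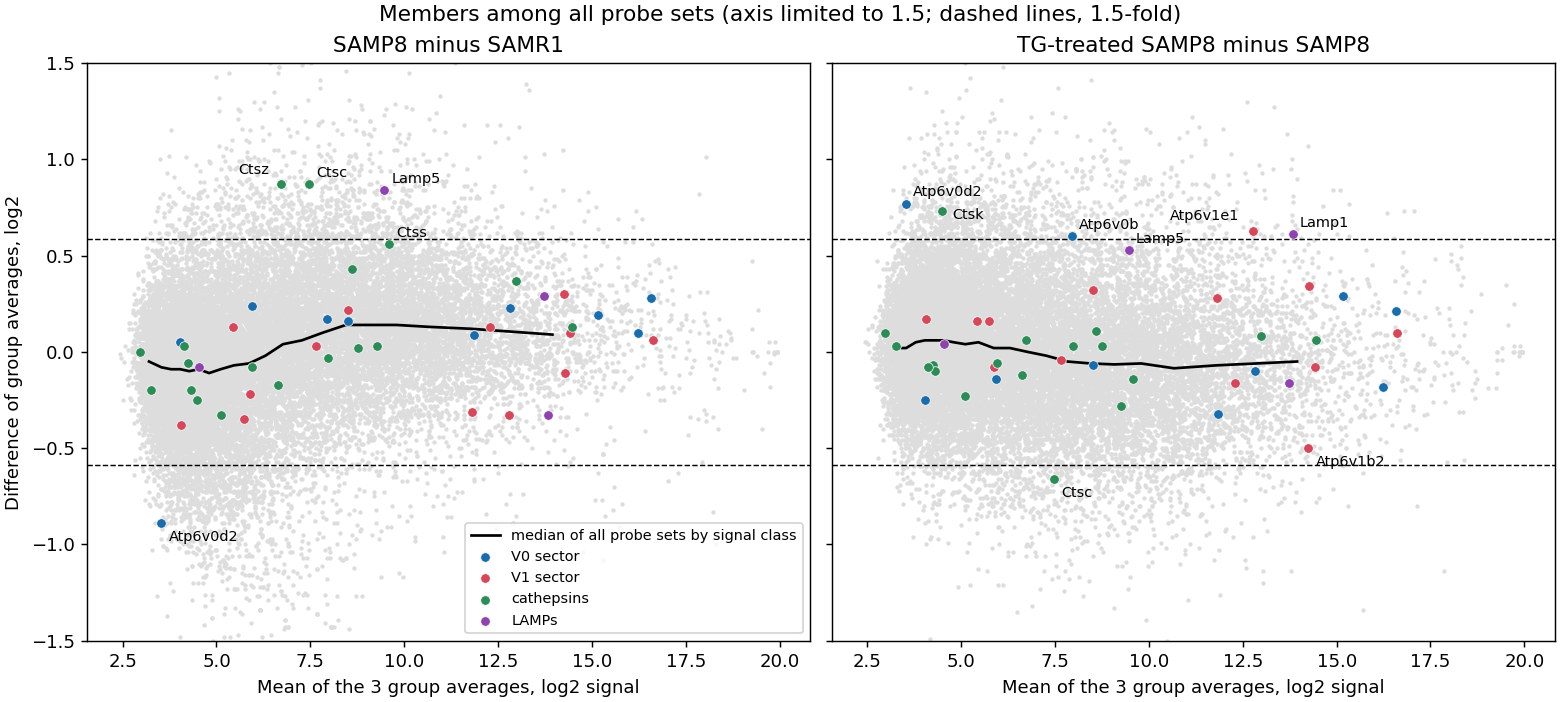
Difference of group averages (y axis, log2) against the mean of the 3 group averages (x axis, log2 signal) for all probe sets (grey) and the members by class (colours), for SAMP8 minus SAMR1 and TG-treated SAMP8 minus SAMP8; the black line is the median of all probe sets in 20 classes of signal, the dashed lines mark 1.5-fold, and probe sets beyond 1.5 on the y axis are not drawn. Ctsc, Ctsz and Lamp5 lie above the upper dashed line on the left, and Atp6v0d2, Ctsk, Atp6v1e1, Lamp1 and Atp6v0b on the right. Below the lower dashed line lie Atp6v0d2 on the left and Ctsc on the right. Most members lie inside the grey cloud near the black line.

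Set against SAMR1, the TG-treated mice were past 1.5-fold in Lamp5, Ctsz and Atp6v0b, with differences of 1.37, 0.93 and 0.77. This comparison is the arithmetic sum of the other two and holds no further measurement. Ctsl and Atp6v1g1 followed at 0.54 each, then the Atp6v0c probe sets at 0.49 and 0.48. By class the median difference of TG-treated SAMP8 minus SAMR1 was 0.095 for V0, -0.01 for V1, 0.025 for cathepsins and 0.205 for the LAMPs, beside -0.01 for all probe sets.

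Other genes of the lysosome were read from 4 further lists, accessory and assembly factors of the V-ATPase, hydrolases with their cofactors, membrane and transport proteins, and inhibitors of cathepsins. The accessory factors (12 probe sets) had medians of 0.11 for SAMP8 minus SAMR1 and -0.125 for TG-treated SAMP8 minus SAMP8, and 1 was past 1.5-fold between the strains. It was Tmem199, an assembly factor in the endoplasmic reticulum, at 7.63 in SAMR1, 8.57 in SAMP8 and 8.14 with TG. Of all probe sets above the median signal, where 9 of the 12 lie, 7.65% were higher in SAMP8 by 1.5-fold. Dmxl1, of the complex that reassembles V1 with V0, had the lowest strain difference (-0.13). With TG the range ran from -0.47 in Wdr7, of the same reassembly complex, to 0.42 in Tcirg1, the a subunit isoform of osteoclasts.

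The 33 hydrolases and cofactors had a median of 0.14 between the strains, where 24 were higher in SAMP8 and 4 past 1.5-fold, and of -0.25 with TG, where 20 were lower and 3 past 1.5-fold. Of all probe sets above the median signal, where 26 of the 33 lie, 62.0% were higher in SAMP8 and 55.0% lower with TG. Past 1.5-fold, these shares were 7.65% and 5.60%. Those higher in SAMP8 included Ppt1 (0.79), Dpp7 (0.61) and Scpep1 (0.59). Ppt1, which removes palmitate from proteins, had 7.60 in SAMR1, 8.39 in SAMP8 and 7.81 with TG. The 3 lower with TG were Man2b1 (-0.81), Lipa (-0.71) and Gaa (-0.63), and the highest was Hexa (0.40). Man2b1, a lysosomal mannosidase, had 6.55, 6.75 and 5.94. The median with TG was -0.23 relative to probe sets of like signal.

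Membrane and transport proteins of the lysosome (19 probe sets) had medians of 0.21 between the strains and -0.18 with TG, with 15 higher in SAMP8 and 14 lower with TG. Of these 19, 18 were above the median signal, where 62.0% of all probe sets were higher in SAMP8 and 55.0% lower with TG. Past 1.5-fold, the shares there were 7.65% and 5.60%. Igf2r, a receptor that sorts hydrolases, was the highest between the strains (0.70) and, with Laptm5 and M6pr (0.68 each), past 1.5-fold, and Scarb2 was the lowest (-0.39). With TG the range ran from -0.61 in Ctns, the cystine exporter, to 0.51 in Ostm1, a partner of the lysosomal chloride transporter.

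Cathepsin inhibitors (7 probe sets) had medians of 0.24 between the strains and -0.18 with TG, with 3 higher and 4 lower with TG. Among them the cystatins Cstb and Cst3 were both higher with TG by at least 1.5-fold, whereas Cst6 and Cst7 had differences of 0.06 and -0.18. Of all probe sets above the median signal, where 5 of the 7 lie, 4.63% were higher with TG by 1.5-fold. Cstb stood at 6.25 in SAMR1, 6.24 in SAMP8 and 7.18 with TG, and Cst3, the abundant secreted inhibitor of the brain, at 16.12, 16.43 and 17.02. Both were highest in the treated mice, while Serpinb6a had the lowest difference with TG (-0.57). Serpina3n was the highest between the strains, at 10.76 in SAMR1 and 11.73 in SAMP8, and Cst6 the lowest (-0.14).

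**Figure D3:**
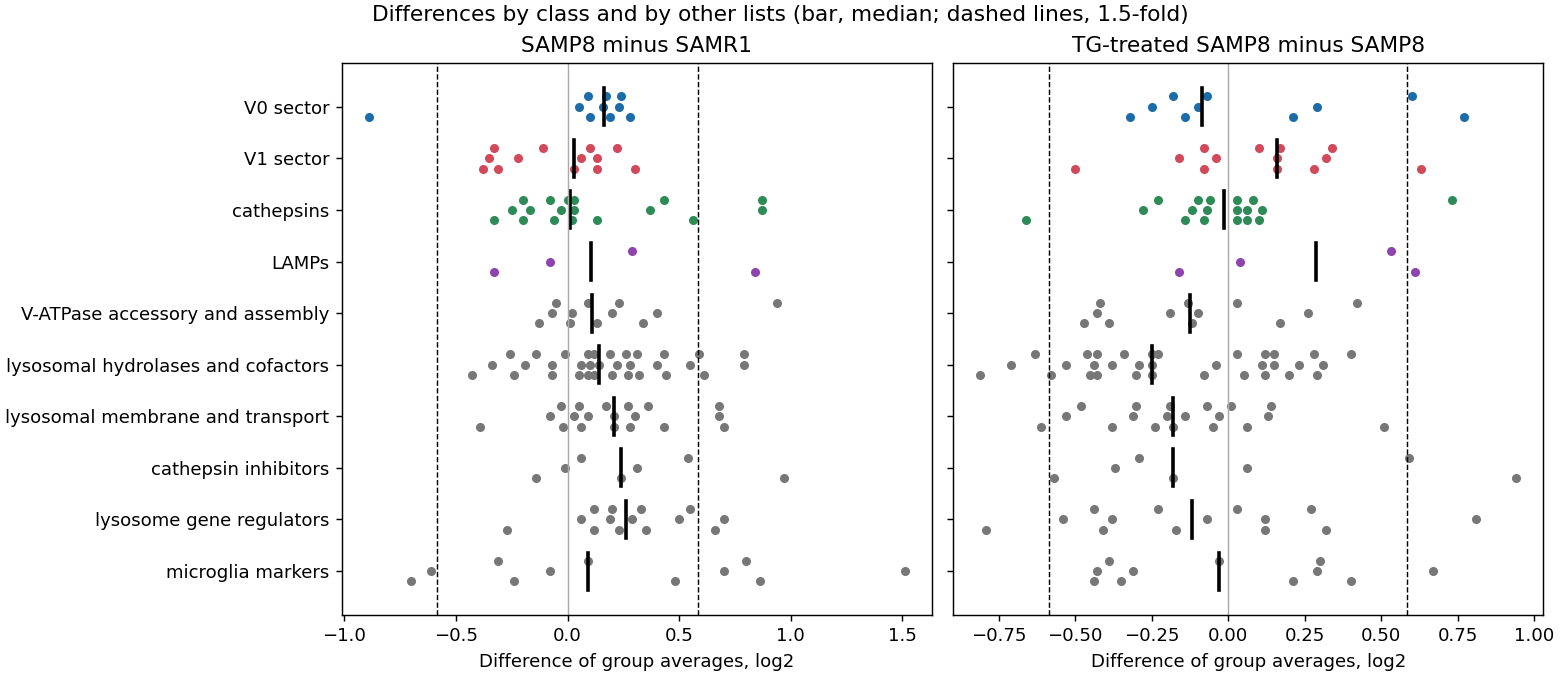
Differences of group averages (x axis, log2) of each probe set (points) in the 4 classes of members (coloured) and in 6 other lists (grey), for SAMP8 minus SAMR1 and TG-treated SAMP8 minus SAMP8; bars are medians and dashed lines mark 1.5-fold. With TG the medians of the hydrolases (-0.25) and of the membrane proteins (-0.18) lie left of 0 and those of the V1 sector (0.16) and the LAMPs (0.285) right of it.

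By position the 44 genes were spread over 18 chromosomes. Ctsk and Ctss lie 17399 bases apart on chromosome 3, and their strain differences were -0.25 and 0.56. The placental genes Ctsj, Ctsq, Ctsr and Ctsm form a cluster on chromosome 13, all within -0.33 to -0.06 between the strains and -0.23 to -0.07 with TG. Genomic spans ran from 2690 to 95404 bases. Across the 45 probe sets the Spearman correlation of the difference with TG and the span was -0.23, beside -0.25 across all placed probe sets, both across genes that share the same arrays.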

How the data were processed

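The deposited group averages are log2 signal. The authors processed Clariom S Mouse arrays by SST-RMA in the Transcriptome Analysis Console, and the tables give the average of 3 arrays per group. Both deposited tables list the same probe sets, and their SAMP8 averages are identical. The tables also hold the authors' own fold changes, p-values and adjusted p-values, which were not used. A description in the labels about a macrophage line was disregarded. The labels and the methods give 3 arrays per group, whereas the series' design text speaks of duplicates. The number of arrays limits the precision.

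Differences of averages, medians by class and counts at a 1.5-fold limit were computed in Python 3.11.15 (numpy 2.4.6, pandas 2.3.3) and tested on simulated data. Gene positions come from RefSeq on GRCm38.p6, the build of the array annotation, which placed 97.2% of probe sets.

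Members and lists were chosen with earlier results of these data known. Named were all members above the median signal or past 1.5-fold and, per lysosomal list, the highest and lowest gene, except that some hydrolases are not reported here. Cell type markers are given by list, and those named were chosen after their values were seen. Alternatives were fold limits of 1.2 and 2, centring, differences relative to probe sets of like signal (20 classes), or of like signal and length (10 by 10 classes, added after seeing the data), a filter on the lowest 25% of signals, 1 value per gene, probe sets with 1 symbol, and leaving out tissue-restricted isoforms.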

Additional observations from a re-analysis of the deposited data

How the results depend on the processing

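The groups are different mice, so the design held no pairing to use. The averages of each group carry no replicate numbers, so no replicate could be left out. In the absence of a spread between arrays, a median was taken as unchanged when it moved by less than 0.1. A count was taken as unchanged when it stayed within 1.5 times. These limits held for 77 of 84 medians and 29 of 42 counts. Some of these outcomes were fixed in advance. Centring moved differences by at most 0.01, and taking 1 value per gene or probe sets with 1 symbol left the V1 and LAMP sets as they were. Several medians were themselves smaller than 0.1, so an unchanged median need not have kept its sign or size. The V0 median between the strains, 0.165, counted as unchanged at 0.07 relative to like signal and length. At a 1.2-fold limit, 9 members were higher and 7 lower in SAMP8 than in SAMR1, 10 higher and 4 lower with TG than in SAMP8, and 13 higher and 4 lower with TG than in SAMR1. At 2-fold all these counts were 0 except the last comparison's higher members, 1. The shares of all probe sets past the 1.2-fold and 2-fold limits were not computed, so these counts cannot be set against the array. Relative to probe sets of like signal the V1 median between the strains was -0.07. Relative to like signal and length the V0 median with TG was 0.03, and the V1 median for TG-treated SAMP8 minus SAMR1 was -0.135. In the latter comparison 1 member, Atp6v0e2 (-0.66), was then lower by 1.5-fold. Between TG-treated SAMP8 and SAMP8 the 1 lower member was then Atp6v0e2 (-0.64) instead of Ctsc (-0.56). Without the lowest 25% of signals 0 members were lower in SAMP8, and the cathepsin median for TG-treated SAMP8 minus SAMR1 was 0.19. Without tissue-restricted isoforms that median was 0.21, the cathepsin median between the strains was 0.13, and the LAMP median between the strains was -0.02, opposite to the 0.105 of all 4 LAMPs, since Lamp5 and Lamp3 were left out.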

Other observations

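Regulators of lysosomal gene expression and of mTORC1, the kinase complex that senses nutrients at the lysosome, were read as a further list of 14 probe sets. In SAMP8, 13 of 14 had a higher average than in SAMR1, with a median difference of 0.26, which was 0.17 relative to probe sets of like signal. Of the 14, 13 were above the median signal, where 62.0% of all probe sets were higher in SAMP8. The exception was Tfeb, the transcription factor best known for driving lysosomal genes, at 7.95 in SAMR1, 7.68 in SAMP8 and 7.27 with TG. Its relative Tfe3 had the highest strain difference, at 6.90, 7.60 and 7.22.

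With TG the list had a median of -0.12, with 6 higher and 8 lower than in SAMP8. Of all probe sets above the median signal 55.0% were lower with TG, so this count lay near the background. The extremes were 2 partners in the same signalling step, Lamtor5 of the Ragulator complex and the GTPase Rragd. Lamtor5 stood at 10.16 in SAMR1, 10.36 in SAMP8 and 11.17 with TG, and Rragd at 9.12, 9.78 and 8.99. No test was run on these averages.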
